A study of Mus musculus with 27 samples.

Results

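Neutrophil genes were described in the whole lungs of mice as a set of 30 genes, matched by symbol among the 56941 annotated genes of the deposited tables, and all 30 were found. The set covers the calprotectin pair, maturation and primary granule genes, receptors, NADPH oxidase subunits, chromatin and interferon-linked genes and small secreted proteins. Of these, 27 passed the filter on low counts and entered the tests over 24629 genes, and Camp, Mpo and Elane did not pass.

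The 27 libraries came from male C57Bl/6 mice of 7 to 8 weeks, 1 mouse per library as far as the labels say. Mice received 5 oropharyngeal instillations of 10 µg of house dust mite extract (HDM) or of PBS, each in 50 µl and 2 to 3 days apart. At 24 h after the last instillation they received 100 µl of saline (SAL) with or without combustion products (CP) of paper, plastic and plywood at 2 mg per ml, and lungs were taken 24 h later for polyA RNA sequencing. The groups were HDM/CP (n = 7), HDM/SAL (n = 6), PBS/CP (n = 7) and PBS/SAL (n = 7), and the PBS/SAL controls had instillations of fluid on the same schedule. Library totals of the deposited estimated counts ran from 56.3 M (M, mega) up to 84.5 M. Divided by 4, the approximate number of deposited counts per read pair planned, they come to between 14.1 M and 21.1 M. A count of 0 therefore allowed between 0.142 and 0.212 counts per M (CPM) in a library, which is called the floor here (3 read pairs, counting error only).

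Neutrophils are short-lived granulocytes that are made in bone marrow and circulate until chemokines and adhesion molecules bring them into inflamed tissue. Granule proteins are transcribed while the cells mature in marrow, primary granule genes first and genes such as Camp and Ngp later, and their mRNA is low in mature cells. Mature cells keep abundant S100a8 and S100a9 mRNA and the mRNA of surface receptors, and on activation raise receptors for cytokines, microbial ligands and damaged cells. Several of the 30 genes, among them Itgb2, Itgam, Cybb, Ncf1 and Ncf4, are also transcribed by monocytes and macrophages, and Wfdc17 is also transcribed by macrophages. In whole-lung RNA more cells of a type and more RNA per cell cannot be told apart.

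The members' levels in transcripts per M (TPM), which are per length and so can be set beside each other, differed widely. Averaged over all 27 libraries, the highest levels were those of S100a9 at 89.3 TPM, Itgb2 at 87.1 TPM, S100a8 at 60.1 TPM, Cybb at 48.9 TPM and Ncf1 at 39.1 TPM. The markers that define neutrophils in mouse lung by flow cytometry and histology were low: Ly6g, which encodes the Ly6G antigen, averaged 0.151 TPM, and the primary granule genes Mpo (myeloperoxidase) and Elane (neutrophil elastase) averaged 0.0173 and 0.00401 TPM. Ly6g was listed at 0 in 13 of 27 libraries and stood above the floor in 5. Mpo was listed at 0 in 22 libraries and Elane in 26, and neither stood above the floor in any library. Calprotectin, Csf3r and Cd177 mRNA were present above the floor in all 27 libraries.

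**Figure D1:**
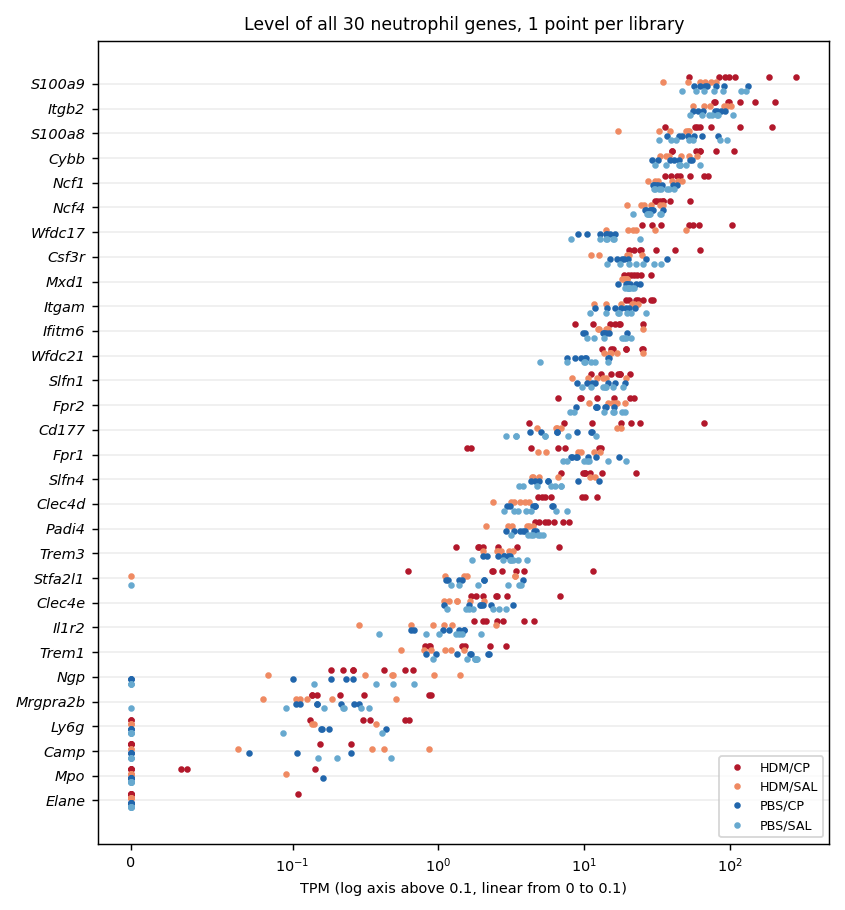
Level of each of the 30 neutrophil genes in TPM (axis logarithmic above 0.1 TPM, linear from 0 to 0.1), with 1 point per library coloured by group and genes ordered by their mean over 27 libraries. S100a9, Itgb2 and S100a8 lead at means of 89.3, 87.1 and 60.1 TPM, while Ngp, Ly6g, Camp, Mpo and Elane lie at or near 0.

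The maturation granule genes were among the members with the lowest levels, with Ly6g, Mrgpra2b, Mpo and Elane. Camp, the cathelicidin peptide of secondary granules (chromosome 9, 109676447 to 109678685, minus strand, GRCm39), was listed at 0 in 15 of 27 libraries and stood above the floor in 1. Its lowest, median and highest values were 0, 0 and 0.0946 CPM in HDM/CP lungs, 0, 0.0884 and 0.317 CPM in HDM/SAL lungs, 0, 0 and 0.0909 CPM in PBS/CP lungs and 0, 0 and 0.174 CPM in PBS/SAL lungs. The single library above the floor was HDM/SAL 100. Ngp, neutrophilic granule protein (chromosome 9, 110248815 to 110252080, plus strand), reached 0.11, 0.164 and 0.402 CPM (lowest, median, highest) in HDM/CP lungs and 0.0543, 0.303 and 0.835 CPM in HDM/SAL lungs. In lungs without HDM, Ngp reached 0, 0.058 and 0.147 CPM in PBS/CP mice and 0, 0.0848 and 0.391 CPM in PBS/SAL mice. It stood above the floor in 11 of 27 libraries, the groups overlapped, and no fold is given because most values lie at or below the floor. No comparison called Ngp, with an adjusted p of 0.85 for HDM/CP against HDM/SAL and 0.23 for HDM/CP against PBS/CP (edgeR quasi-likelihood test with Benjamini-Hochberg adjustment over all genes tested, threshold 0.05, as for every adjusted p that follows unless another tool is named).

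Most genes of mature and activated cells stood above the floor in all 27 libraries, apart from Ly6g, Mrgpra2b and Stfa2l1 (above it in 5, 6 and 24). The promoters of S100a8, S100a9 and Clec4d, none of which was called in the main tests described below, are shown here beside that of Ngp. RefSeq promoters (250 bases before to 50 after the start, GRCm38.p6) were matched for 26 of the 30 members. They were searched on both strands for TTNNGNAA, the core letters of sites of the C/EBP family that acts through granulocyte development, and for GAGGAAGT, letters bound by PU.1, the Ets factor of myeloid cells. The windows are S100a8 at chr3:90668821-90669120 (plus strand), S100a9 at chr3:90695672-90695971 (minus strand), Ngp at chr9:110419558-110419857 (plus strand) and Clec4d at chr6:123261857-123262156 (plus strand). Each is written 5′ to 3′ on the gene's strand, and capitals mark every match to either motif on either strand.
S100a8: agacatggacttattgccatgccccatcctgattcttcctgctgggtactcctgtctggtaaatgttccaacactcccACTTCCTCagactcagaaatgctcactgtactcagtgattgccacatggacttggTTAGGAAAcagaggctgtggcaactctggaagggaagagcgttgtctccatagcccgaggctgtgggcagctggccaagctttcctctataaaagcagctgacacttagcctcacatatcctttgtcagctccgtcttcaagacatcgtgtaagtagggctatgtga
S100a9: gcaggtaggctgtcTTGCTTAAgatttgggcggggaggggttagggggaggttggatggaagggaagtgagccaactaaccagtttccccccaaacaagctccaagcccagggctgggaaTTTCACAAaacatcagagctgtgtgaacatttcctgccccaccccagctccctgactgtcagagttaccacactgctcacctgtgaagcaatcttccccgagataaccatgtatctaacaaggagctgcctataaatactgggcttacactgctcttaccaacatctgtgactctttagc
Ngp: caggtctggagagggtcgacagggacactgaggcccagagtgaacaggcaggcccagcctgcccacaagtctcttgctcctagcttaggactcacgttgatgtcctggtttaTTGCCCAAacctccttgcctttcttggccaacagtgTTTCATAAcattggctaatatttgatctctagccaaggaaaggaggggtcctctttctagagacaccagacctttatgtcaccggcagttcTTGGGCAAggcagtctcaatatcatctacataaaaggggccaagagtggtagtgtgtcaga
Clec4d: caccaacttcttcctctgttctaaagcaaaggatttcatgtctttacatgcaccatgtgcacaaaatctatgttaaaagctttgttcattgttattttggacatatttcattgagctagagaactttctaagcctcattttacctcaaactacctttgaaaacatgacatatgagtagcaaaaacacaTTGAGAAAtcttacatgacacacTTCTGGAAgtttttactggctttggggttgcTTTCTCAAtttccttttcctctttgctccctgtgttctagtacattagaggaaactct
The S100a8 window holds 1 match to each motif, the S100a9 window 2 and the Ngp and Clec4d windows 3 matches each to the C/EBP-like letters and none to the PU.1-like letters. TTNNGNAA was found in the windows of 17 of 26 members (65.4%), against 44.1% of all 27025 symbols with a window. GAGGAAGT was found in 4 of 26 (15.4%), those of Elane, Ly6g, Mpo and S100a8, against 3.69% of all symbols. The motifs do not overlap in the S100a8 window, and Ngp, which was near the floor in whole lung, has as many C/EBP-like matches as Clec4d, which was above it in every library. The window of Camp, the other maturation granule gene, holds 0 matches to either motif.

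In mice given HDM, CP against saline was not followed by a call in any of the 27 neutrophil genes, but many of them had higher values after CP. The calls in this comparison over all genes were 0.00406% of 24629 higher, which is 1 gene, and 0% lower. At an unadjusted p under 0.05, 16 of 27 members (59.3%) were higher in HDM/CP than in HDM/SAL lungs and 0 were lower, where 5.7% of all genes tested were higher and 3.99% lower. The median log2 fold change was 0.57 over the 27 members, against -0.00 over all genes tested. DESeq2 called 4 members higher in the same comparison, Il1r2, Clec4d, Clec4e and Padi4, among 159 genes higher and 33 lower in all. By edgeR the count of 0 members became 2 without library HDM/CP 45, among 120 genes higher and 26 lower, 1 without HDM/CP 66, among 13 higher and 1 lower, and 1 without HDM/SAL 99, among 17 higher and 0 lower. Without HDM/CP 96, 43 genes were called higher and 3 lower in all, and no member was called. How many genes were called in all thus depended on single libraries, and the members' count did not always move with it.

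Calprotectin, the S100a8 and S100a9 heterodimer that binds calcium and zinc and is released by activated neutrophils and monocytes, showed this pattern. S100a8 (chromosome 3, 90576285 to 90577342, plus strand, GRCm39) had lowest, median and highest levels of 8.25, 14.2 and 44.4 CPM in HDM/CP lungs, 4.32, 10.0 and 12.5 CPM in HDM/SAL lungs, 8.47, 11.4 and 18.5 CPM in PBS/CP lungs and 7.47, 12.0 and 21.4 CPM in PBS/SAL lungs. Of the HDM/CP libraries 6 of 7 lay above the highest HDM/SAL library. S100a9 (chromosome 3, 90599939 to 90603028, minus strand) had 12.7, 22.9 and 68.9 CPM in HDM/CP lungs, 9.3, 15.7 and 20.3 CPM in HDM/SAL lungs, 13.9, 16.2 and 31.1 CPM in PBS/CP lungs and 11.3, 18.5 and 30.4 CPM in PBS/SAL lungs. For both genes the HDM/SAL group had the lowest median of the 4 groups and the HDM/CP group the highest. The log2 fold change for HDM/CP against HDM/SAL was 1.06 (SE 0.33, adjusted p = 0.23) for S100a8 and 1.04 (SE 0.31, adjusted p = 0.22) for S100a9. Without library HDM/CP 97 both came to 0.72.

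Among the activation and sensing receptors, Clec4d, Clec4e and Il1r2 had the smallest p. Clec4d (Dectin-3, chromosome 6, 123239070 to 123252224, plus strand) and Clec4e (Mincle, chromosome 6, 123258748 to 123266829, minus strand) are neighbouring C-type lectin receptors for fungal and mycobacterial glycolipids, and Clec4e also senses a product of dead cells. Clec4d had lowest, median and highest levels of 2.77, 3.36 and 7.61 CPM in HDM/CP lungs, 1.57, 2.01 and 2.52 CPM in HDM/SAL lungs, 1.84, 2.71 and 3.53 CPM in PBS/CP lungs and 1.71, 2.35 and 4.22 CPM in PBS/SAL lungs. The HDM/CP and HDM/SAL groups did not overlap, and the log2 fold change was 1.13 (SE 0.24, adjusted p = 0.096). Clec4e did not overlap between these groups in CPM either, with 2.91 to 12.5 CPM in HDM/CP lungs against 2.03 to 2.84 CPM in HDM/SAL lungs and a log2 fold change of 1.10 (SE 0.29, adjusted p = 0.17). In TPM the Clec4e groups overlapped, with 1.67 TPM in HDM/CP 49 and 2.06 TPM in HDM/SAL 100. Without HDM/CP 97 the Clec4e log2 fold change was 0.68.

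Il1r2, the decoy receptor that takes up interleukin 1 without signalling, had 1.2 to 2.69 CPM in HDM/CP lungs against 0.218 to 1.53 CPM in HDM/SAL lungs. Its log2 fold change of 1.35 was the largest of the members that stood above the floor in all libraries (SE 0.33, adjusted p = 0.15). Trem1, an amplifier of inflammatory signalling on myeloid cells, had lowest, median and highest levels of 1.11, 2.02 and 4.12 CPM in HDM/CP lungs, 0.826, 1.43 and 2.09 CPM in HDM/SAL lungs, 1.19, 2.28 and 3.06 CPM in PBS/CP lungs and 1.27, 2.43 and 2.62 CPM in PBS/SAL lungs. These 4 groups overlapped, and the median was lowest in HDM/SAL lungs. The formyl peptide receptors, Fpr1 and Fpr2, guide neutrophils towards bacterial and mitochondrial peptides. Fpr1 had 0.992 to 8.04 CPM in HDM/CP lungs against 3.12 to 7.95 CPM in HDM/SAL lungs, with a log2 fold change of -0.42 (SE 0.38, adjusted p = 0.79). Fpr2 had 3.33 to 10.7 CPM in HDM/CP lungs against 5.71 to 9.42 CPM in HDM/SAL lungs. Trem3, a neighbour of Trem1 on chromosome 17, spanned 0.63 to 3.18 CPM in HDM/CP lungs against 1.06 to 1.52 CPM in HDM/SAL lungs, and its highest value was again library HDM/CP 97. Mrgpra2b, one of a cluster of near-identical G protein-coupled receptors, stood above the floor in 6 of 27 libraries and cannot be read further.

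**Figure D2:**
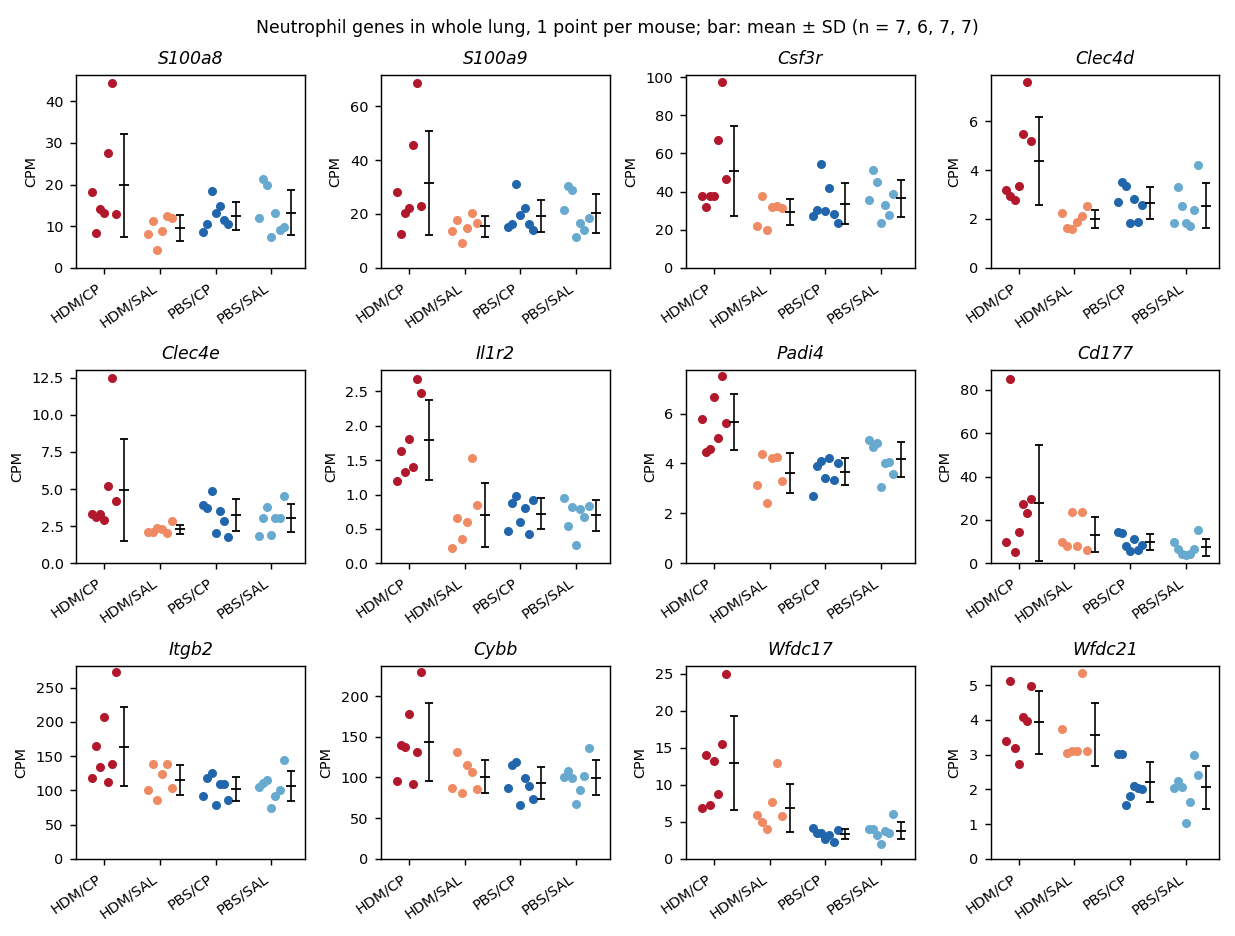
Levels of 12 neutrophil genes in CPM, with 1 point per mouse, the groups in the order HDM/CP, HDM/SAL, PBS/CP and PBS/SAL, and bars for the mean ± SD. The HDM/CP libraries of Clec4d (2.77 to 7.61 CPM) lie above all HDM/SAL libraries (1.57 to 2.52 CPM), while S100a8 and Cd177 owe their highest points to single HDM/CP libraries at 44.4 and 84.9 CPM.

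Among the identity and adhesion receptors, Csf3r had the smallest p in HDM/CP against HDM/SAL lungs. It encodes the receptor of the growth factor G-CSF that drives neutrophil production and release, and had 31.8 to 97.5 CPM in HDM/CP lungs against 19.6 to 37.4 CPM in HDM/SAL lungs, with a log2 fold change of 0.80 (SE 0.25, adjusted p = 0.23), and 0.56 without HDM/CP 97. Cd177, a surface protein of neutrophils that in humans holds proteinase 3 on the cell, had lowest, median and highest levels of 5.19, 23.0 and 84.9 CPM in HDM/CP lungs, 6.19, 8.92 and 23.7 CPM in HDM/SAL lungs, 5.56, 8.47 and 14.5 CPM in PBS/CP lungs and 3.68, 6.73 and 15.1 CPM in PBS/SAL lungs. The HDM/CP group held both the lowest and the highest of the 13 libraries from HDM mice. Its log2 fold change was 1.07 (SE 0.50, adjusted p = 0.48), and 0.47 without library HDM/CP 49. Itgb2 and Itgam encode the chains of the Mac-1 integrin, by which neutrophils and monocytes attach to activated endothelium. Itgb2 averaged 164 ± 57.7 CPM in HDM/CP lungs (SD, n = 7) and 115 ± 21.7 CPM in HDM/SAL lungs (SD, n = 6). Itgam averaged 52.8 ± 7.36 CPM in HDM/CP lungs and 41.2 ± 8.87 CPM in HDM/SAL lungs. The ranges of both overlapped between the 2 groups, and the log2 fold changes were 0.51 for Itgb2 (SE 0.18) and 0.36 for Itgam (SE 0.16).

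The NADPH oxidase genes encode parts of the enzyme that makes superoxide in phagocytes: Cybb its membrane-bound catalytic chain, and Ncf1 and Ncf4 cytosolic regulators. All 3 had an unadjusted p under 0.05 for HDM/CP against HDM/SAL. Ncf1 had lowest, median and highest levels of 46.7, 56.3 and 86.5 CPM in HDM/CP lungs, 39.3, 48.4 and 59.1 CPM in HDM/SAL lungs, 38.2, 39.9 and 54.9 CPM in PBS/CP lungs and 38.5, 42.4 and 52.4 CPM in PBS/SAL lungs. Ncf4 had 18.04, 20.5 and 29.7 CPM in HDM/CP lungs, 13.1, 16.7 and 20.7 CPM in HDM/SAL lungs, 15.8, 17.0 and 20.9 CPM in PBS/CP lungs and 13.2, 16.4 and 20.3 CPM in PBS/SAL lungs. Neighbouring groups overlapped for both genes, and the log2 fold changes were small, at 0.41 for Ncf1 (SE 0.13, adjusted p = 0.25), 0.35 for Ncf4 (SE 0.11, adjusted p = 0.24) and 0.50 for Cybb (SE 0.19, adjusted p = 0.35). Ncf1 overlaps Gtf2ird2 in the annotation (mean 14.9 CPM), and no source here says that reads were counted by strand, so reads of the overlap cannot be told apart.

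Among the chromatin and interferon-linked members, Padi4 had the clearest separation. Padi4 converts arginine to citrulline in histones and is required for neutrophil extracellular traps in several mouse models. It had lowest, median and highest levels of 4.47, 5.62 and 7.49 CPM in HDM/CP lungs, 2.42, 3.76 and 4.37 CPM in HDM/SAL lungs, 2.68, 3.91 and 4.24 CPM in PBS/CP lungs and 3.07, 4.07 and 4.96 CPM in PBS/SAL lungs. In CPM all 7 HDM/CP libraries lay above all 6 HDM/SAL and all 7 PBS/CP libraries, and the log2 fold change against HDM/SAL was 0.64 (SE 0.15, adjusted p = 0.12). In TPM the separation of Padi4 from HDM/SAL held, but HDM/CP 49 at 4.622 TPM lay just below PBS/CP 59 at 4.630 TPM. With Clec4d and Clec4e, Padi4 made 3 members whose HDM/CP and HDM/SAL groups did not overlap in CPM with HDM/CP higher, against 0.106% of all genes tested. In CPM 0 members were lower without overlap, against 0.0528%. The separation of Clec4e was lost in TPM. Slfn4, a Schlafen gene of myeloid cells that interferon induces, had 13.8, 17.9 and 38.9 CPM in HDM/CP lungs, 7.68, 10.2 and 21.3 CPM in HDM/SAL lungs, 7.01, 9.94 and 22.1 CPM in PBS/CP lungs and 6.66, 10.1 and 12.6 CPM in PBS/SAL lungs. Its groups overlapped, with a log2 fold change of 0.73 (SE 0.29, adjusted p = 0.39). Mxd1, a partner of Max that opposes Myc in cells that have stopped dividing, averaged 49.0 ± 6.38 CPM in HDM/CP lungs and 42.6 ± 1.04 CPM in HDM/SAL lungs. Slfn1, a second Schlafen gene, had 9.87 to 18.1 CPM in HDM/CP lungs against 8.05 to 16.9 CPM in HDM/SAL lungs. Ifitm6, of a family of interferon-induced membrane proteins, had 2.74 to 8.09 CPM in HDM/CP lungs against 4.04 to 7.88 CPM in HDM/SAL lungs. Slfn1 and Slfn4 are paralogs and may share reads, as may Fpr1 and Fpr2.

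The small secreted members are 2 whey acidic protein genes and a cystatin. Wfdc17 had lowest, median and highest levels of 6.81, 13.2 and 24.9 CPM in HDM/CP lungs, 3.96, 5.87 and 12.9 CPM in HDM/SAL lungs, 2.22, 3.5 and 4.13 CPM in PBS/CP lungs and 2.03, 3.74 and 6.0 CPM in PBS/SAL lungs. Its log2 fold change for HDM/CP against HDM/SAL was 0.91 (SE 0.28, adjusted p = 0.22). Wfdc21 had 2.73, 3.96 and 5.13 CPM in HDM/CP lungs, 3.05, 3.1 and 5.35 CPM in HDM/SAL lungs, 1.54, 2.05 and 3.01 CPM in PBS/CP lungs and 1.03, 2.08 and 2.97 CPM in PBS/SAL lungs. Both had higher medians in the HDM groups than in the PBS groups, and for Wfdc21 every HDM/SAL library lay above every PBS/SAL library in CPM. In TPM these Wfdc21 groups overlapped, with 13.5 TPM in HDM/SAL 54 and 14.5 TPM in PBS/SAL 104. Stfa2l1, a stefin of the cystatin family with near-identical neighbours, had 0.137 to 2.27 CPM in HDM/CP lungs against 0 to 0.7 CPM in HDM/SAL lungs.

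**Figure D3:**
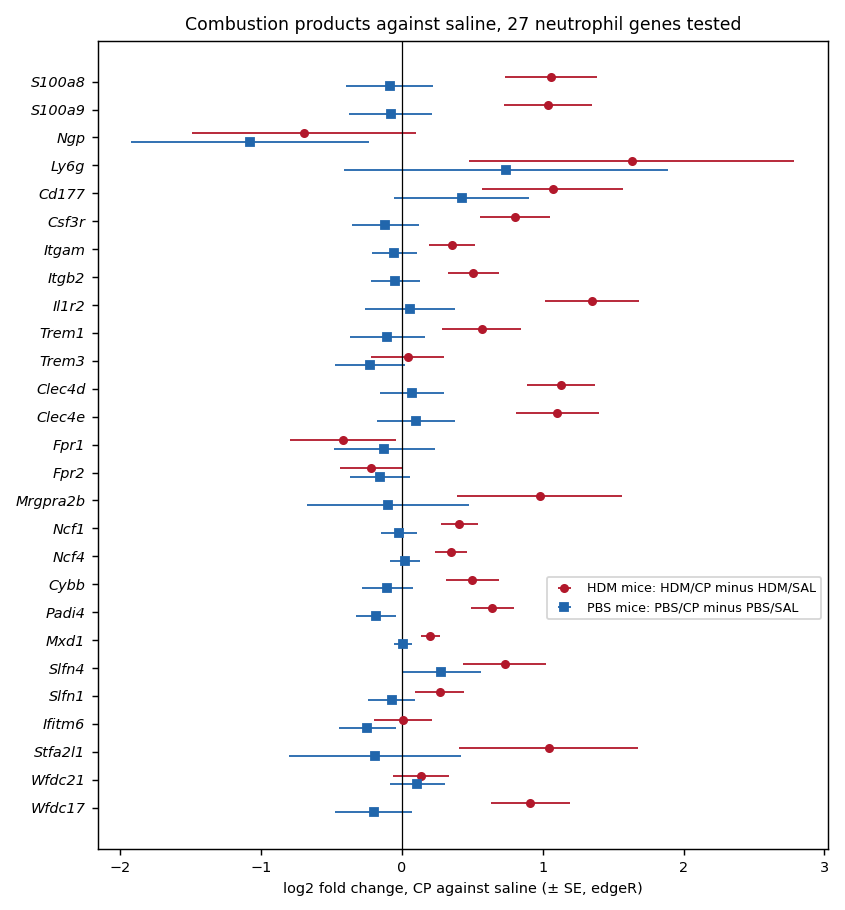
Log2 fold change of CP against saline with its standard error for the 27 members tested, in HDM mice (circles) and PBS mice (squares). S100a8 lies at 1.06 in HDM mice and -0.08 in PBS mice, and no value passed the adjusted threshold. Ngp, Ly6g and Mrgpra2b lie mostly at or below the floor, so their values carry wide errors.

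In mice that had received PBS, CP against saline gave no call in the 27 members either, where 0.00812% of all genes tested were called higher and 0% lower. At an unadjusted p under 0.05 there were 0 members higher and 0 lower, against 2.92% and 2.54% of all genes tested, and no member was without overlap in either direction, against 0.0609% higher and 0.138% lower. DESeq2 called none of the members in this comparison. The median log2 fold change of the members was -0.08. S100a8 averaged 12.5 ± 3.34 CPM in PBS/CP lungs and 13.3 ± 5.38 CPM in PBS/SAL lungs (SD, n = 7 each), a log2 fold change of -0.08 (SE 0.31). S100a9 averaged 19.2 ± 5.98 CPM in PBS/CP lungs and 20.3 ± 7.24 CPM in PBS/SAL lungs, also -0.08 (SE 0.29). Csf3r averaged 33.6 ± 10.9 CPM in PBS/CP lungs and 36.4 ± 9.73 CPM in PBS/SAL lungs. Clec4d stood at 0.07 (SE 0.23) and Clec4e at 0.10 (SE 0.28) on the log2 scale. No member passed, which does not show that the levels were equal.

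The difference between the CP response of HDM and PBS mice was tested as an interaction, which asks whether prior HDM changes what CP does. No member was called, and 0% of all genes tested were called in either direction. At an unadjusted p under 0.05, 13 of 27 members had a higher response in HDM mice, against 3.55% of all genes tested, and 0 had a lower one, against 2.83%. That count was 8 without HDM/CP 67, 8 without HDM/CP 98 and 7 without the 3 libraries with the lowest totals. The median over members was 0.60 on the log2 scale. Padi4 had the smallest p, with an interaction of 0.83 (SE 0.21, adjusted p = 0.69). For Clec4d it was 1.06 (SE 0.33, adjusted p = 0.74) and for S100a8 1.14 (SE 0.45, adjusted p = 0.77). A higher CP response in HDM mice was therefore not called for any single member. Averaged over HDM and PBS mice, CP against saline also called 0 members, against 0.0406% of all genes higher and 0.00812% lower. In that average 11 of 27 members were higher at an unadjusted p under 0.05, against 5.12% of all genes, with Clec4d at 0.60 (SE 0.16, adjusted p = 0.16). The count of 11 was 6 without PBS/CP 59, PBS/CP 76 or PBS/SAL 80, and 7 without HDM/CP 97, HDM/SAL 50, HDM/SAL 54 or PBS/SAL 104. DESeq2 called Clec4d among the members, and 135 genes higher and 41 lower in all.

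In mice without CP, HDM against PBS called 1 of the 27 neutrophil genes higher, a share close to that of all genes tested. Wfdc21 was higher in HDM/SAL than in PBS/SAL lungs by 0.80 on the log2 scale (SE 0.20, adjusted p = 0.019), where 3.19% of all genes tested were called higher and 2.25% lower. Its groups did not overlap in CPM, as in 1.17% of all genes higher and 0.804% lower, but they overlapped in TPM. The call was lost without library HDM/SAL 99, with a log2 fold change of 0.65. Wfdc17 was 0.86 higher (SE 0.28, adjusted p = 0.069). S100a8 at -0.48 (SE 0.32, adjusted p = 0.45), Clec4d at -0.35 (SE 0.24) and Trem1 at -0.63 (SE 0.28, adjusted p = 0.20) had negative values that did not pass. At an unadjusted p under 0.05, 2 of 27 members were higher and 1, Trem1, was lower, against 11.1% and 8.97% of all genes tested. The members' median was -0.00, and 0.01 over all genes tested. DESeq2 called 2 members, among 1087 genes higher and 922 lower in all, and Wfdc17 passed by edgeR without HDM/CP 98 or without PBS/SAL 105.

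With CP given to both, HDM against PBS called 7 of 27 members higher and 0 lower, where 5.6% of all genes tested were called higher and 2.27% lower. Wfdc17 rose most, by 1.97 on the log2 scale in HDM/CP against PBS/CP lungs (SE 0.28, adjusted p = 9.6e-05), with 6.81 to 24.9 CPM in HDM/CP lungs against 2.22 to 4.13 CPM in PBS/CP lungs. Il1r2 rose by 1.31 (SE 0.32, adjusted p = 0.0093), with 1.2 to 2.69 CPM in HDM/CP lungs against 0.429 to 0.973 CPM in PBS/CP lungs. Padi4 rose by 0.62 (SE 0.14, adjusted p = 0.0066). These 3 members did not overlap between the groups in CPM, as in 1.41% of all genes tested higher and 0.309% lower, but Padi4 overlapped in TPM. Wfdc21 rose by 0.83 (SE 0.20, adjusted p = 0.0078), Itgb2 by 0.67 (SE 0.17, adjusted p = 0.015) and Ncf1 by 0.56 (SE 0.13, adjusted p = 0.0057). Cybb rose by 0.62 (SE 0.18, adjusted p = 0.032), a call that was lost without any 1 of the libraries HDM/CP 49, 67 and 98 and PBS/CP 57, 75, 101 and 102, and Itgb2 lost its call without HDM/CP 98. S100a8 was at 0.66 (SE 0.31, adjusted p = 0.22) and S100a9 at 0.72 (SE 0.29, adjusted p = 0.15), and neither passed. Without HDM/CP 97 they came to 0.33 and 0.40. Within the runs of library numbers 45 to 64, 66 to 81 and 96 to 105, the log2 ratio of the group means was 0.08, -0.04 and 1.37 for S100a8 and -0.03, 0.03 and 1.60 for S100a9, so that it was near 0 in all but the last run. The 7 called members had positive ratios in each run, from 1.49, 1.80 and 2.43 for Wfdc17 to 0.13, 0.93 and 0.89 for Cybb. Clec4d at 0.71 (SE 0.23, adjusted p = 0.050) lay at the threshold without passing it. At an unadjusted p under 0.05, 18 of 27 members were higher and 0 lower, against 11.9% and 8.72% of all genes tested, and the members' median was 0.62. The count of 18 was 12 without HDM/CP 97. DESeq2 called 12 members, among 1657 genes higher and 873 lower in all. EdgeR called 11 members without HDM/CP 45 (1603 genes higher, 659 lower in all) or without HDM/CP 66 (1617 higher, 983 lower), and 5 without HDM/CP 98 (950 higher, 257 lower), against 7 with all libraries (1378 higher, 560 lower). This comparison and that of HDM/CP with HDM/SAL share the HDM/CP mice, so their values are not independent.

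Levels differed widely among the 7 HDM/CP mice, and the members did not follow 1 order across them. Library HDM/CP 97 was the highest of its group in 13 of 27 members, which included S100a8, S100a9, Csf3r, Il1r2, Clec4d, Clec4e and Padi4. Library HDM/CP 98 was the highest in 5, which were Itgb2, Ncf1, Ncf4, Cybb and Wfdc17. Library HDM/CP 49 was the highest for Cd177 and Wfdc21 and the lowest in 11 members, and HDM/CP 45 was the highest in 0. The heatmap of HDM/CP libraries shows these different orders.

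**Figure D4:**
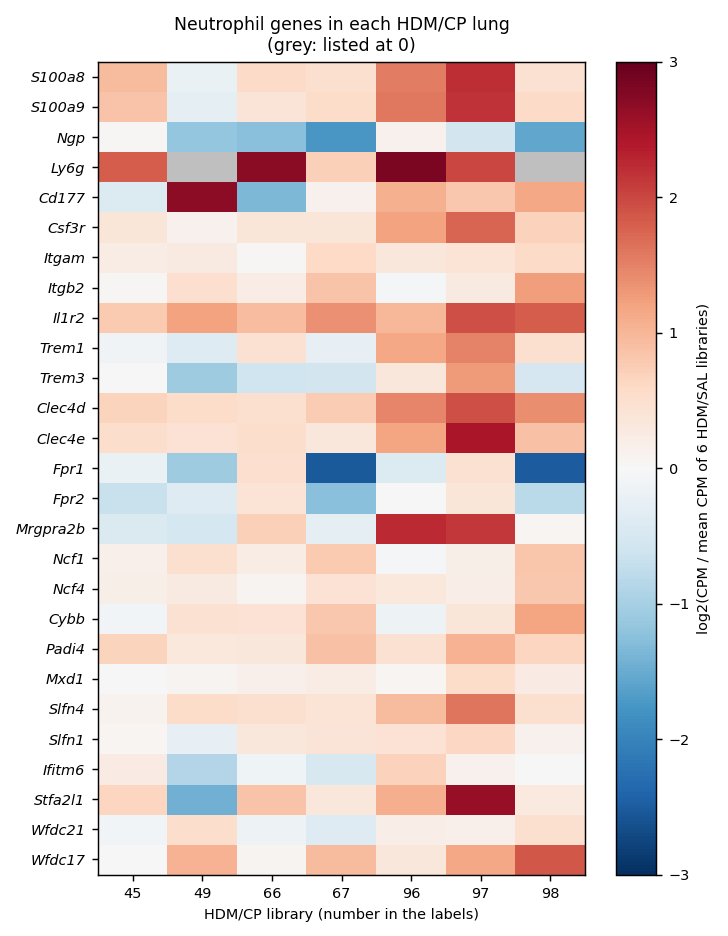
Level of each of the 27 members in each HDM/CP library as log2 of its CPM over the mean of the 6 HDM/SAL libraries (red higher, blue lower, grey listed at 0). Library 97 is the highest in 13 members with S100a8 at 44.4 CPM, whereas library 98 is the highest for Itgb2, Ncf1, Ncf4, Cybb and Wfdc17.

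Within groups, 20 relations between pairs of members were computed on log2 CPM, chosen after the values were seen, with exact permutation tests (two-sided) adjusted over the 20. S100a8 and S100a9 varied together across the HDM/CP mice, with a Pearson r of 0.99 (exact permutation p = 0.0012, adjusted 0.0079, n = 7) and a Spearman rho of 0.86 (exact permutation p = 0.024, adjusted 0.060). Without the 2 libraries farthest from the median of S100a8, r was 0.96. That pair had a similar r elsewhere, 0.97 in HDM/SAL, 0.94 in PBS/CP and 0.94 in PBS/SAL lungs. S100a8 and Csf3r had an r of 0.93 in the HDM/CP mice (exact permutation p = 0.0042, adjusted 0.010) and a rho of 0.75 (exact permutation p = 0.066, adjusted 0.12), and r was 0.49 without the 2 farthest libraries, so that relation rests on them. Itgb2 and Cybb had an r of 0.96 in the HDM/CP mice (exact permutation p = 0.00040, adjusted 0.0060) and a rho of 0.96 (exact permutation p = 0.0028, adjusted 0.019), with 0.88 without the 2 farthest. Their r was 0.92 in HDM/SAL, 0.97 in PBS/CP and 0.97 in PBS/SAL lungs. S100a8 and Itgb2 had an r of -0.49 in the HDM/CP mice (exact permutation p = 0.26, adjusted 0.37) and a rho of -0.68 (exact permutation p = 0.11, adjusted 0.18), and -0.33 without the 2 farthest. In the other 3 groups that pair had a positive r, 0.76 in HDM/SAL, 0.42 in PBS/CP and 0.38 in PBS/SAL lungs, with adjusted exact permutation p of 0.088, 0.42 and 0.46. Without the 2 farthest libraries of each group these came to 0.22, -0.093 and 0.30, so the sign in PBS/CP lungs rests on them. The difference between groups was not tested. S100a8 and Cd177 had an r of -0.19 in the HDM/CP mice (exact permutation p = 0.68, adjusted 0.72) and a rho of -0.43 (exact permutation p = 0.35, adjusted 0.39), and -0.83 without the 2 farthest. That pair had an r of -0.45 in HDM/SAL, -0.41 in PBS/CP and -0.11 in PBS/SAL lungs, with adjusted exact permutation p of 0.42, 0.42 and 0.82. Its rho there was -0.086, -0.54 and -0.036, with adjusted exact permutation p of 0.96, 0.31 and 0.96. No relation of Cd177 with S100a8 passed in any group. Its r and rho were negative in each, but r in PBS/SAL lungs was 0.22 without the 2 farthest libraries. In the other 3 groups the r of S100a8 with Csf3r was 0.85 in HDM/SAL, 0.88 in PBS/CP and 0.89 in PBS/SAL lungs, with adjusted exact permutation p of 0.038, 0.015 and 0.017. The rho of that pair was 0.71, 0.86 and 0.86 in the same order, with adjusted exact permutation p of 0.19, 0.060 and 0.060, so that none passed by rank.

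**Figure D5:**
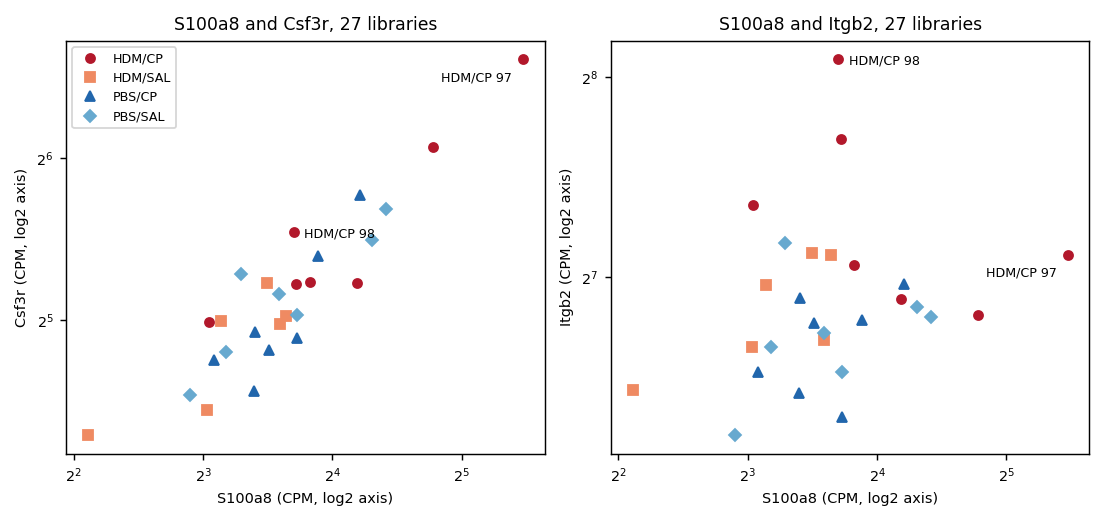
S100a8 against Csf3r (left) and against Itgb2 (right) in CPM on log2 axes, with 1 point per library and a symbol per group. HDM/CP 97 is the highest library for S100a8 and Csf3r (44.4 and 97.5 CPM), while HDM/CP 98 is the highest for Itgb2 (272 CPM) at a lower S100a8.

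The labels' library numbers fall into 3 runs (45 to 64, 66 to 81 and 96 to 105), which the labels do not call batches, and each run holds 1 to 3 libraries of every group. Within the runs, in that order, the log2 ratio of the mean CPM in HDM/CP over HDM/SAL lungs was 0.74, 0.63 and 1.21 for S100a8, 0.75, 0.70 and 1.39 for Clec4d, 0.55, 0.41 and 1.59 for Clec4e and 0.63, 0.42 and 0.67 for Padi4. Across members, the ratio was positive in 20 of 27, 20 of 27 and 24 of 26 members, with medians of 0.37, 0.35 and 0.62. The matching shares of all genes tested were not computed, and the run 66 to 81 holds 1 HDM/SAL library. The members come from the same mice and include Ngp, Ly6g and Mrgpra2b near the floor, so they are not replicates of each other. The runs were left as they are in the tests, and a fit with the run as a block gave 1.01 for S100a8 in HDM/CP against HDM/SAL lungs.

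Genes of the same cells outside the set were listed as 26 other neutrophil genes, of which 24 were tested. For HDM/CP against HDM/SAL lungs 0 of 24 were called and 14 (58.3%) were higher at an unadjusted p under 0.05, against 5.7% of all genes tested. Mmp8, the collagenase of neutrophil granules, had 3.43, 11.3 and 31.9 CPM (lowest, median, highest) in HDM/CP lungs against 1.89, 3.73 and 3.99 CPM in HDM/SAL lungs, a log2 fold change of 2.00 (SE 0.36, adjusted p = 0.062). It was called in the average over HDM and PBS mice, at 1.28 (SE 0.25, adjusted p = 0.046). Ptafr, the receptor of platelet-activating factor, was at 0.92 (SE 0.17, adjusted p = 0.062) in HDM/CP against HDM/SAL lungs. Of the 24 genes, 10 (41.7%) rose in HDM/CP against PBS/CP lungs, where 5.6% of all genes tested did, led by Ptafr at 1.15 (SE 0.17), Retnlg at 2.17 (SE 0.32) and Mmp8 at 1.97 (SE 0.34), and 1, G0s2, fell, as 2.27% of all genes did. In HDM/SAL against PBS/SAL lungs 2 of 24 (8.33%) rose, against 3.19% of all genes, Retnlg by 1.43 (SE 0.33, adjusted p = 0.010) and Hdc by 0.50 (SE 0.13, adjusted p = 0.027).

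Genes of granulocyte precursors were listed apart, 10 of them with 7 tested. Ctsg, Fcnb and Ms4a3 had highest values over all libraries of 0.084, 0.058 and 0.0834 CPM and lay below the floor throughout. They are not the whole list, which also holds Cebpe, Prtn3 and Gfi1. In HDM/CP against PBS/CP lungs 5 of 7 rose (71.4%, against 5.6% of all genes), and they were Chil1 by 1.29 (SE 0.17), Lcn2 by 1.82 (SE 0.34), Ltf by 2.56 (SE 0.49), Olfm4 by 2.44 (SE 0.55) and Cebpe by 3.46 (SE 0.78), the last against PBS/CP values of 0 to 0.273 CPM, at or near the floor. In HDM/SAL against PBS/SAL lungs 4 of 7 rose (57.1%, against 3.19% of all genes), Chil1 by 1.17 (SE 0.17), Lcn2 by 1.62 (SE 0.34), Ltf by 2.26 (SE 0.50) and Olfm4 by 2.80 (SE 0.62). Chil1, Lcn2 and Ltf are also transcribed by airway epithelium and Chil1 by macrophages, and none of the 7 was called in HDM/CP against HDM/SAL lungs. Camp and Ngp, whose proteins share granules with lactoferrin (Ltf), were near the floor in the same libraries in which Ltf reached 17.0 to 137 CPM in HDM/CP and 4.82 to 26.99 CPM in PBS/SAL lungs.

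Recruitment signals were measured in the same libraries, 13 genes with 11 tested. In HDM/SAL against PBS/SAL lungs 4 of 11 rose (36.4%, against 3.19% of all genes): the neutrophil-attracting chemokines Cxcl5 by 3.29 (SE 0.58), Cxcl1 by 1.24 (SE 0.31) and Cxcl15 by 0.60 (SE 0.10), and P-selectin (Selp), on which leukocytes roll, by 0.70 (SE 0.18). In HDM/CP against PBS/CP lungs 5 of 11 rose (45.5%, against 5.6%), with Cxcl3 at 3.72 (SE 0.71) added to the same 4 genes. For HDM/CP against HDM/SAL lungs 0 of 11 were called and 4 had an unadjusted p under 0.05. Of all genes tested, 5.7% were higher and 3.99% lower at that threshold. Cxcl3 stood at 2.03 (SE 0.68, adjusted p = 0.28) and Cxcl1 at 0.87 (SE 0.31, adjusted p = 0.32).

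Of the members Itgb2, Itgam, Cybb, Ncf1 and Ncf4, which monocytes and macrophages also transcribe, Itgb2, Cybb and Ncf1 were called in HDM/CP against PBS/CP lungs. Itgam and Ncf4 were not called there. Markers of monocytes and macrophages were listed as 11 genes. Of the 11 genes, 7 (63.6%, against 5.6% of all genes) rose in HDM/CP against PBS/CP lungs, among them Ccr2 by 0.82 (SE 0.11) and Mrc1 by 0.95 (SE 0.17). In HDM/CP against HDM/SAL lungs 0 of 11 were called. At an unadjusted p under 0.05, 6 were higher there, against 5.7% of all genes tested. The summed level of the 11 genes ranged over 3991 to 5671 CPM in HDM/CP, 4132 to 5443 CPM in HDM/SAL, 4099 to 4787 CPM in PBS/CP and 3966 to 4972 CPM in PBS/SAL lungs. None of the 11 was at 0 in any library, and the part of these cells in the values of Itgb2, Itgam, Cybb, Ncf1 and Ncf4 was not tested. Of 10 interferon-induced genes, 8 (against 5.6% of all genes) rose in HDM/CP against PBS/CP lungs, and their part in Slfn4, Slfn1 and Ifitm6 was not tested either. Summed red cell markers, a measure of blood in the lung, ranged over 3348 to 9056 CPM in HDM/CP, 2586 to 13123 CPM in HDM/SAL, 5630 to 11650 CPM in PBS/CP and 5211 to 15096 CPM in PBS/SAL lungs, with overlap between all groups. Eosinophil markers summed to 16.5 to 41.5 CPM in HDM/CP and 14.6 to 29.3 CPM in HDM/SAL lungs, and the granule gene Epx stayed at or below 0.0995 CPM.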

How the data were processed

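Whole-lung RNA of 27 mice was sequenced with 20 M read pairs of 150 bases planned per library, per the labels' protocols. The deposited tables hold estimated counts and TPM per gene, both made by the authors; the submitters' processing notes name STAR, StringTie 2 and GRCm39, and for the scaling of the estimated counts no step was recorded in the labels or headers read. The estimated counts come to 2.82 to 4.22 times the pairs planned, so counting error is larger than they show. The TPM values, normalized by the authors, sum to 999899 to 999999 per library. The 310 genes without a symbol held 0.060% of the counts.

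Estimated counts were rounded and tested in R 4.3.3 with edgeR 4.0.16 (filterByExpr with a minimum count of 10, TMM, robust quasi-likelihood F tests, two-sided, 1 model of the 4 group means in all 27 libraries). Benjamini-Hochberg adjustment ran over 24629 genes, with a threshold of 0.05, and p-values measure the spread between libraries. All 6 comparisons were recomputed with DESeq2 1.42.0, limma 3.58.1 and the other settings given in the closing section. Scripts were tested on simulated data. All 30 members are reported; levels in all 4 groups are given for Camp, Ngp, S100a8, S100a9 and, per other role, the members with the smallest p for CP over HDM and PBS mice and for HDM/SAL against PBS/SAL, and from each other list up to 4 members by p, or every called one where there were 5 or fewer. The members, lists and pairs were chosen with earlier results of these data known. Promoters are from RefSeq, GRCm38.p6, whose coordinates are not those of GRCm39.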

Additional observations from a re-analysis of the deposited data

Results flagged for a closer look

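In 108 sets of values (27 members in 4 groups), the highest or lowest library was checked for a gap to its nearest neighbour, as a share of the group's range, above Dixon's 95% critical value. It was above in 13, of which 12 were the highest library and 1 the lowest. Chance alone flags about 1 in 20 sets where values have a normal spread. That was not checked for the untransformed CPM used here, and the sets share libraries, so 13 cannot be set against that rate. Library HDM/CP 97 stood above the other HDM/CP libraries in 4 members, with 12.5 CPM of Clec4e against 5.23 CPM in the next library, 3.18 CPM of Trem3 against 1.67 CPM, 62.1 CPM of Mxd1 against 50.6 CPM and 2.27 CPM of Stfa2l1 against 0.792 CPM. HDM/CP 49 had 84.9 CPM of Cd177 against 29.5 CPM in the next library, and HDM/CP 98 had 29.7 CPM of Ncf4 against 23.0 CPM. In HDM/SAL lungs, library 99 had 5.35 CPM of Wfdc21, library 52 had 7.88 CPM of Ifitm6 and library 72 had 0.309 CPM of Mrgpra2b, each far above the rest. In PBS/CP lungs, library 76 had 20.9 CPM of Ncf4 and library 59 had 0.737 CPM of Stfa2l1. In PBS/SAL lungs, library 81 had 0.201 CPM of Ly6g, near the floor, and library 105 had the lowest Trem1 level at 1.27 CPM.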

How the results depend on the processing

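Members called were counted again under 12 alternatives and with each of the 27 libraries left out. In HDM/CP against HDM/SAL lungs the count of 0 became 4 with DESeq2 and ranged over 0 to 2 with 1 library left out. In HDM/SAL against PBS/SAL lungs the count of 1 became 2 with DESeq2 and 0 on log2(TPM + 1) with no filter, and ranged over 0 to 2 with 1 library left out. In HDM/CP against PBS/CP lungs the count of 7 became 12 with DESeq2, 12 with a minimum count of 50 and 12 with the estimated counts divided by 4, fell to 5 on log2(TPM + 1) with no filter and to 6 on log2(TPM + 0.1) and with no filter on low counts, and ranged over 5 to 11 with 1 library left out. Averaged over HDM and PBS mice, DESeq2 called 1. The cause of these changes was not tested. The count of 0 in PBS/CP against PBS/SAL lungs and in the interaction held in all alternatives run. A fit of only the groups compared gives no value for the interaction or the average. Of 162 member values, the 102 of at least 1 SE kept their sign in all alternatives, 35 of the 60 smaller ones did not, 3 of 8 called values lost the call in some alternative and 11 uncalled values gained one. In PBS/CP against PBS/SAL lungs, leaving out 1 library gave log2 fold changes of -0.205 to 0.0707 for S100a8, -0.235 to 0.0486 for S100a9, -0.00655 to 0.237 for Clec4d and -0.0272 to 0.217 for Clec4e, so these have no settled sign. Leaving out the 3 libraries with totals under 60 M, chosen after seeing the data, gave 6 members in HDM/CP against PBS/CP lungs and the main count elsewhere. No paired analysis was possible because no library number is shared between groups. Depth limits Camp, Ngp, Ly6g, Mrgpra2b, Mpo and Elane, which lie mostly at or below the floor.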
